A study of Sus scrofa with 20 samples.

Results

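The 5 genes described here are those of fatty acid synthesis from acetyl-CoA: SLC25A1 (XLOC_011368), ACLY (XLOC_006152), ACSS2 (XLOC_015362), ACACA (XLOC_006820) and FASN (XLOC_006511). They were chosen by name, and each was found in the gene tables by its Ensembl identifier. They make up 5 of 23483 loci, with 30 of 63418 assembled isoforms, and were read in all 20 libraries. The tissue was backfat, a subcutaneous fat depot, taken from 10 female and 10 castrated male pigs of the Italian Large White breed, with 1 library per animal. All animals shared housing and diet, weighed 150 to 160 kg and were 233 to 250 days old at slaughter. Polyadenylated RNA was sequenced as paired reads of 100 bases. The labels name no treatment other than castration, and no intact males were analysed here, so sex and castration cannot be told apart. Library names give the labelled sex and a running number in deposit order, by which no animals are paired.

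Fat cells can build fatty acids from carbohydrate. Citrate leaves the mitochondrion through the citrate carrier SLC25A1, and ATP citrate lyase, ACLY, splits it in the cytosol into acetyl-CoA and oxaloacetate. Acetyl-CoA synthetase 2, ACSS2, makes the same acetyl-CoA from free acetate. Acetyl-CoA carboxylase 1, ACACA, turns it into malonyl-CoA, the committed step, and fatty acid synthase, FASN, joins the carbon units into palmitate with electrons from NADPH. Insulin, SREBP-1c (the product of SREBF1) and ChREBP (the product of MLXIPL) are known activators of these genes. In pigs, adipose tissue is the main site of this pathway.

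Library totals lay between 25754778 and 51248122 counts (median 36922247), and every library held at least 1240 counts for each of the 5 genes. There were 3 libraries that stood apart. At the 18 loci that told the sexes apart in the other 18 libraries, the one labelled female 10 was closer to castrated males at 16, and the one labelled castrated male 10 was closer to females at 17. Each of the other 18 libraries was closer to its own sex at 16 to 18 of these loci, which were chosen in those libraries. Castrated male 1 had the lowest level of all 5 genes. Beside most results that rest on them, values without these libraries are given. Because the tissue was measured in bulk, fewer cells of a type and less RNA per cell cannot be told apart.

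FASN was the most abundant of the 5 per length, and ACACA the least. FASN averaged 471 ± 299 FPKM (SD, n = 20), a unit of sequenced fragments relative to transcript length and library size. ACLY averaged 123 ± 70.5 FPKM and SLC25A1 105 ± 44.5 FPKM. ACSS2 averaged 77.9 ± 33.9 FPKM and ACACA 58.3 ± 26.6 FPKM. A second locus with the ACACA identifier, described below, averaged 17.2 FPKM and is left out of this order. The step from ACSS2 to ACACA was not tested with that locus counted in. Of the 4 neighbouring steps in this order, 3 held within animals. FASN exceeded ACLY in 19 of 20 libraries, with a mean log2 ratio of 1.76 ± 0.77 (SD, two-sided permutation p = 1e-05, the smallest that 100000 sign changes can give). SLC25A1 exceeded ACSS2 in 19 of 20 libraries (mean log2 ratio 0.46 ± 0.27, permutation p = 3e-05), and ACSS2 exceeded ACACA in 18 of 20 (0.45 ± 0.38, permutation p = 0.00014). ACLY and SLC25A1, the lyase and the carrier that feeds it, were not separated: ACLY was higher in 12 of 20 libraries, with a mean log2 ratio of 0.05 ± 0.59 (permutation p = 0.731).

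The range between animals was wide for every step of the pathway. All levels from here on are CPM, counts scaled to the library size after TMM scaling, unless FPKM is named. SLC25A1, the carrier, ran from 33.4 CPM in castrated male 1 through a median of 154 CPM to 343 CPM in female 4, a 10.3-fold range. ACLY ran from 31.7 through 200.0 to 459 CPM, a 14.5-fold range between the same 2 animals. ACSS2 ran from 32.2 through 158 to 257 CPM, a 7.96-fold range, again from castrated male 1 to female 4. The 3 genes that supply cytosolic citrate or acetyl-CoA thus had their lowest and highest values in the same animals. ACACA ran from 56.9 CPM in castrated male 1 through 292 to 489 CPM in female 4, 8.59-fold. FASN, the synthase, ran from 83.4 CPM in castrated male 1 through 2447 to 4582 CPM in castrated male 3, 55.0-fold. Without castrated male 1 the FASN range was 16.9-fold, from 271 CPM in female 9, and that of ACSS2 4.72-fold.

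**Figure D1:**
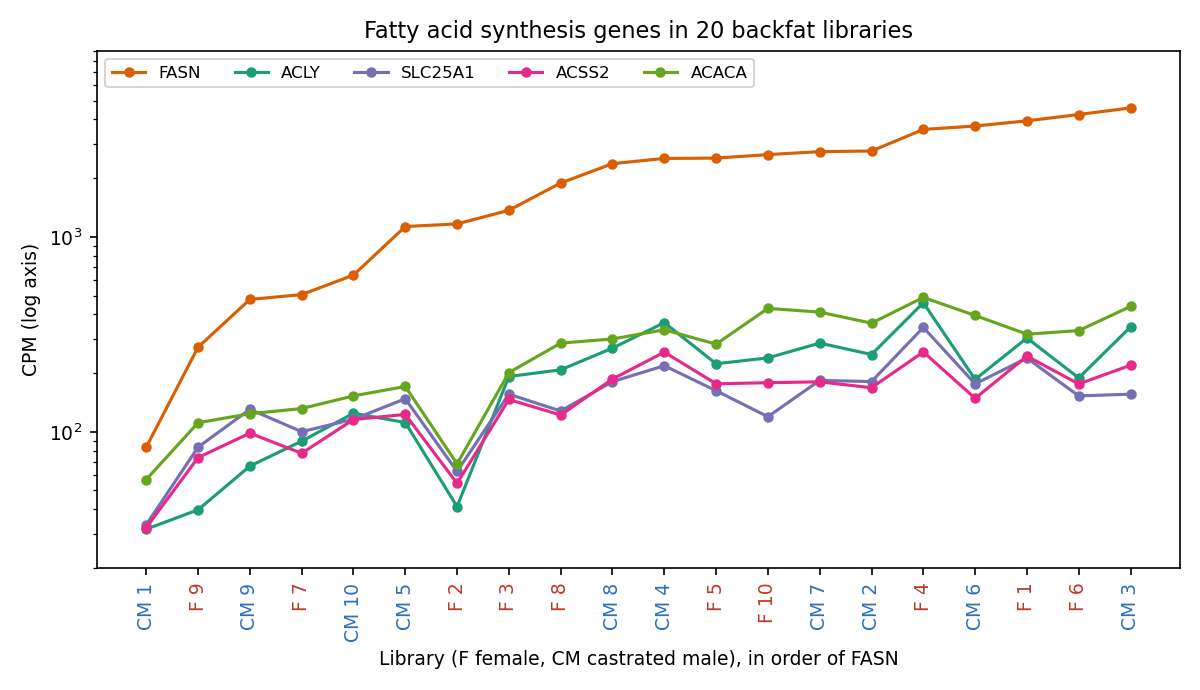
CPM on a log axis of the 5 genes in each of the 20 libraries, which are set in order of FASN along the horizontal axis (F, female, red labels; CM, castrated male, blue labels). All 5 genes were lowest in castrated male 1, and female 2 shows a dip of the other 4 genes beside a FASN level of 1164 CPM.

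Low animals were low across the pathway. Castrated male 1, female 9 and female 7 were among the 5 lowest libraries for all 5 genes. Female 4 was among the 5 highest for all 5. Female 2 and castrated male 9 were among the 5 lowest for 4 of the 5 genes. Female 2 was an exception in its FASN level: SLC25A1 (62.6 CPM), ACACA (68.5 CPM) and ACSS2 (54.4 CPM) were each the second lowest of 20, and ACLY (41.3 CPM) the third lowest, while FASN (1164 CPM) was the 7th lowest. The FPKM ratio of ACACA to FASN, a balance of the committed step and the synthase, was 0.0593 in female 2, 0.619 in castrated male 1 and 0.140 at the median. The lowest and highest of these ratios belong to 2 animals in which ACACA itself was low.

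Set against all loci, the 5 genes were among the most variable. The residual SD of log2 CPM, with the mean of each sex removed, was 1.56 for FASN, 1.16 for ACLY, 0.94 for ACACA, 0.80 for ACSS2 and 0.74 for SLC25A1. The median over 8769 loci with a mean of at least 10 CPM was 0.26. These SDs ranked 26th, 71st, 146th, 241st and 314th from the top. Without castrated male 1 they were 1.24, 1.03, 0.82, 0.63 and 0.55, against a median of 0.25, and ranked 51st, 86th, 202nd, 448th and 671st. FASN, at the end of the pathway, kept the largest spread of the 5 in both sets, and the carrier SLC25A1 the smallest.

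The 5 genes moved together between animals. Over the 10 pairs, Pearson's r of log2 CPM ran from 0.81 (FASN and SLC25A1) to 0.95 (ACLY and ACSS2), and Spearman's rho from 0.72 to 0.96 in the same 2 pairs (n = 20, two-sided permutation p from 1e-05, the smallest possible, to 0.00065). With the 2 libraries farthest from the median of one gene left out, r ran from 0.60 for FASN and SLC25A1 to 0.95 for ACLY and ACSS2. ACLY and ACSS2, of the citrate route and the acetate route to cytosolic acetyl-CoA, thus had the highest r over all libraries. That of ACLY and ACACA was close (0.946 beside 0.953), and the pairs were not tested against each other. Within females r of ACLY and ACSS2 was 0.95 (permutation p = 5e-05, n = 10) and within castrated males 0.96 (permutation p = 2e-05). For ACACA and FASN, r was 0.99 within castrated males (permutation p = 1e-05) and 0.78 within females (permutation p = 0.00886). Female 2 was one of the 2 libraries left out for this pair, and r was then 0.95, above the 0.89 over all 20 libraries. For FASN and SLC25A1 it was 0.91 within castrated males (permutation p = 0.00132) and 0.69 within females (permutation p = 0.0265). The sexes' r were not tested against each other.

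**Figure D2:**
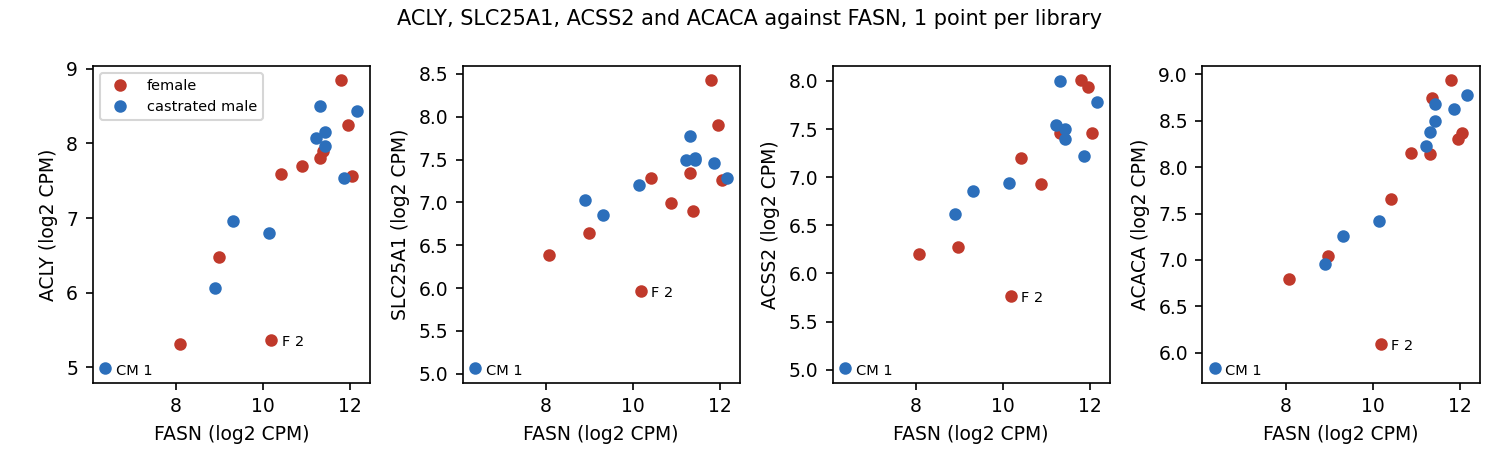
Log2 CPM of ACLY, SLC25A1, ACSS2 and ACACA (vertical axes) against log2 CPM of FASN (horizontal axes), 1 point per library, red for females and blue for castrated males. Castrated male 1 stands at the lower left of each panel, and female 2 lies below the other libraries of similar FASN level.

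The same relation was tested across all loci, with FASN as a covariate beside sex. A slope is the change in log2 CPM per doubling of FASN. In edgeR's quasi-likelihood test, 225 of 21586 loci had an adjusted p under 0.05 (1.04%), 190 with a positive slope (0.88%) and 35 with a negative one (0.162%). All 4 other genes of the pathway were among those that rose with FASN. ACACA had a slope of 0.53 (SE 0.0605, adjusted p = 0.000112) and was 3rd of all loci by p. ACSS2 had a slope of 0.45 (SE 0.057, adjusted p = 0.000212) and was 8th. ACLY had a slope of 0.66 (SE 0.0834, adjusted p = 0.000218) and was 10th, and SLC25A1 had a slope of 0.39 (SE 0.068, adjusted p = 0.00532) and was 49th. All 4 slopes lay below 1, so that these transcripts changed by less than FASN did. The count of loci depended on single animals: it was 134 without castrated male 1, 129 without female 9 and 204 without the libraries numbered 10. Without castrated male 1, SLC25A1 lost its call (slope 0.32, adjusted p = 0.067), and ACACA (adjusted p = 0.00192), ACLY (0.00379) and ACSS2 (0.00764) kept theirs. DESeq2 called 693 loci.

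Fits with another gene of the pathway as the covariate share all libraries with this one and are given side by side. With ACLY as the covariate, 247 of 21586 loci passed (1.14%), and the slopes of the other 4 genes ran from 0.55 to 1.05, with adjusted p of at most 0.00317. With ACACA, 229 passed (1.06%), and the 4 slopes ran from 0.67 to 1.27. With ACSS2, 390 passed (1.81%), with slopes from 0.88 to 1.56. With SLC25A1, 594 passed (2.75%), with slopes from 1.02 to 1.62 and adjusted p of at most 0.0138. In each of these fits all 4 other genes passed. Without castrated male 1 the counts were 45, 47, 50 and 50, and with SLC25A1 as the covariate ACACA (adjusted p = 0.0608) and FASN (adjusted p = 0.199) no longer passed.

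The NADPH-producing enzymes, which supply the electrons for FASN, were tested at 7 of 7 loci. Of these 7, 5 rose with FASN, beside 0.88% of all loci. All 7 slopes were above 0, beside 47.5% of all loci, with a median of 0.26 beside a median of -0.0047 over all loci. Of the pentose phosphate pathway, PGD, the 6-phosphogluconate dehydrogenase, had a slope of 0.29 (SE 0.0396, adjusted p = 0.000473), and the transketolase TKT 0.26 (SE 0.0391, adjusted p = 0.00119). The transaldolase TALDO1 had a slope of 0.28 (adjusted p = 0.0141). Malic enzyme, ME1, had the steepest slope of the list, 0.48 (SE 0.0999, adjusted p = 0.0188), at a locus that also carries the identifier of PGM3. The cytosolic isocitrate dehydrogenase IDH1 had a slope of 0.19 (adjusted p = 0.0561) and the lactonase PGLS 0.04 (adjusted p = 0.59), and neither passed. PGD and TKT, 2 of 7, still passed without castrated male 1, and the median slope was then 0.22.

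Genes of mitochondrial acetyl-CoA and citrate supply were next, in a list that also holds PDK1, PDK2 and PDK4, kinases that inhibit pyruvate dehydrogenase. Of 14 listed, 10 were tested and 5 rose with FASN, beside 0.88% of all loci. All 10 slopes were above 0 (median 0.20), beside 47.5% of all loci. PDHA1, a subunit of pyruvate dehydrogenase, had a slope of 0.22 (SE 0.026, adjusted p = 0.00012). PDK1, a kinase that inhibits pyruvate dehydrogenase, also rose (slope 0.22, adjusted p = 0.00731), as did the subunits PDHB (0.29, adjusted p = 0.019) and PDHX (0.18, adjusted p = 0.0249). The pyruvate carboxylase gene PC had a slope of 0.18 (adjusted p = 0.0534). The kinases PDK4 (slope 0.10, adjusted p = 0.603) and PDK2 (0.08, adjusted p = 0.455) did not pass. PDHA1 and PDK1 passed without castrated male 1 too, among 3 of 10, and PDHB (adjusted p = 0.118) and PDHX (adjusted p = 0.199) did not. Without the libraries numbered 10 the call of PDHX was lost (adjusted p = 0.0545), and 4 of 10 passed.

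Downstream of palmitate, 6 of 9 listed genes of desaturation and elongation were tested and 2 rose with FASN, beside 0.88% of all loci. SCD, the desaturase that makes oleate, had a slope of 0.66 (SE 0.155, adjusted p = 0.0393), equal to that of ACLY to 2 decimals with a larger error. The elongase ELOVL5 had a slope of 0.23 (adjusted p = 0.0487). FADS2 (slope -0.04, adjusted p = 0.825) and HACD3 (0.01, adjusted p = 0.886) did not pass. No locus was matched to ELOVL6. ELOVL5 passed without castrated male 1 as well (slope 0.31, adjusted p = 0.049), and SCD did not (0.44, adjusted p = 0.0972). The reverse held without the libraries numbered 10, where SCD passed (0.76, adjusted p = 0.0167) and ELOVL5 did not (0.22, adjusted p = 0.0768).

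No tested regulator of the pathway passed at the RNA level, where 1.04% of all loci did. Of 18 listed, 13 were tested and 0 were called (7 slopes above 0 beside 47.5% of all loci, median 0.0034). At the share of all loci, 0 calls among 13 genes cannot set regulators apart from other loci. MLXIPL, at a locus that spans 3 gene identifiers, had a slope of 0.16 (adjusted p = 0.0964), and PPARG, the regulator of fat cell differentiation, 0.10 (adjusted p = 0.438). SCAP, which escorts SREBP proteins, had a slope of 0.0034 (adjusted p = 0.981), and the nuclear receptor NR1H2 -0.02 (adjusted p = 0.897). No locus was matched to SREBF1 or THRSP. Of the genes that act on acetyl-CoA carboxylase, 1 of 8 tested rose, HLCS, which attaches the biotin the enzyme needs (slope 0.17, adjusted p = 0.0221, and 0.15 with adjusted p = 0.159 without castrated male 1). Of the kinase subunits of AMPK, which inhibits it, 0 of 5 passed, with slopes from -0.09 (PRKAA1) to 0.02 (PRKAB2). These are also too few genes to differ from the share of all loci.

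Related enzymes moved in part. Of 12 listed genes of fatty acid and acetate metabolism, 10 were tested and 2 rose: ACSS3, an acyl-CoA synthetase of the same family as ACSS2 (slope 0.25, adjusted p = 0.00523), and ACSF3, the mitochondrial malonyl-CoA synthetase (0.22, adjusted p = 0.00983). ACSF3 lost its call without castrated male 1 (0.23, adjusted p = 0.0646) and ACSS3 did not (0.27, adjusted p = 0.026). With a fat cell marker score added to the model neither passed (adjusted p = 0.117 for ACSS3 and 0.106 for ACSF3). ACSS1, the mitochondrial acetyl-CoA synthetase, had a slope of -0.08 (adjusted p = 0.482). ACACB, the other acetyl-CoA carboxylase, had no matched locus. Cholesterol synthesis, the other pathway that uses cytosolic acetyl-CoA, had 1 of 11 tested genes called, DHCR7 (slope 0.25, adjusted p = 0.0409, 0.17 with adjusted p = 0.244 without castrated male 1, and 0.25 with adjusted p = 0.0563 without the libraries numbered 10). FDPS (slope 0.02, adjusted p = 0.876, at a locus that spans 2 identifiers) did not pass. Of all loci, 1.04% were called in the FASN fit.

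**Figure D3:**
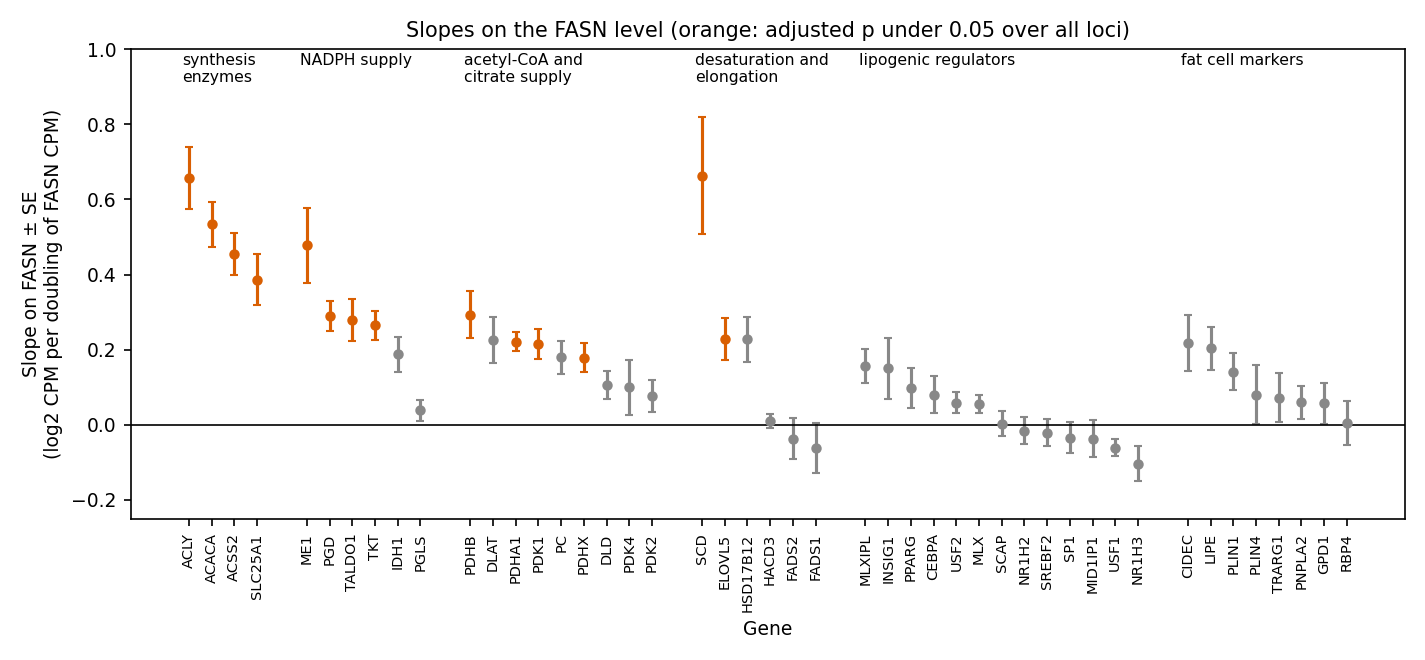
Slope on FASN with its SE (vertical axis, log2 CPM per doubling of FASN CPM) for the 4 other synthesis genes and tested genes of 5 lists, without the genes not reported here (horizontal axis), orange where the adjusted p over all 21586 loci was under 0.05. The 4 synthesis genes passed, as did ME1, PGD, TALDO1, TKT, PDHB, PDHA1, PDK1, PDHX, SCD and ELOVL5. Of 13 regulators and 8 fat cell markers 0 did, beside 1.04% of all loci.

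Cell type markers were read beside these results. Of 16 fat cell markers 8 had a locus, none was at 0 in any library, and their summed level was 3439 to 6366 CPM in females and 2817 to 7920.4 CPM in castrated males, so the labelled tissue showed its defining genes (PLIN1, PLIN4, CIDEC and LIPE among them). The PLIN1 locus also carries the identifier of PEX11A. None of the 8 passed in the FASN fit, where 1.04% of all loci did. Beside 47.5% of all loci, all 8 markers had slopes above 0 (median 0.08). The log2 of their sum had an r of 0.53 with FASN (rho 0.64, permutation p = 0.0173, adjusted p = 0.0578 over 10 measures, and r = 0.70 without the 2 farthest libraries). Within females r was 0.18 and within castrated males 0.68. With the fat cell marker score added to the model, 73 of 21586 loci passed. Among them were 3 of 7 NADPH genes, 3 of 10 acetyl-CoA and citrate genes and 1 of 6 of desaturation and elongation, SCD (slope 0.84, adjusted p = 0.0318). In the same model the 4 other synthesis genes kept their calls, with slopes of 0.69 for ACLY (adjusted p = 0.00395), 0.49 for ACACA (0.00395), 0.46 for ACSS2 (0.00421) and 0.39 for SLC25A1 (0.0425).

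Fibroblast and matrix markers rose with FASN in sum, and endothelial markers fell. These sums weigh genes by level: COL3A1 (mean 10416 CPM) and COL1A2 (3759 CPM) led the first, and PECAM1 (1324 CPM) the second. In the FASN fit COL1A2 (adjusted p = 0.38) and PECAM1 (adjusted p = 0.287) did not pass. Of 12 fibroblast markers 9 were tested, with 2 called, COL3A1 (slope 0.20, adjusted p = 0.0173) and COL5A1 (0.19, adjusted p = 0.00851), where 1.04% of all loci were. Beside 47.5% of all loci, all 9 fibroblast markers had slopes above 0. Their sum, 15649 to 23798 CPM in females and 8135 to 21882 CPM in castrated males, had an r of 0.75 with FASN (rho 0.53, permutation p = 0.00063, adjusted p = 0.0063), r = 0.49 without the 2 farthest libraries and 0.52 without castrated male 1. TEK was called (slope -0.17, adjusted p = 0.0493), beside 0.162% of all loci called with a negative slope. Of 10 endothelial markers 5 were tested, and all 5 had slopes below 0. Their sum, 1541 to 2594 CPM in females and 1493 to 2730.3 CPM in castrated males, had an r of -0.63 (rho -0.52, permutation p = 0.00251, adjusted p = 0.0125), -0.42 without the 2 farthest libraries and -0.51 without castrated male 1. COL3A1, COL5A1 and TEK lost their calls without castrated male 1 (adjusted p = 0.17, 0.0851 and 0.353), as did TEK without the libraries numbered 10 (adjusted p = 0.0727). Smooth muscle markers, 7 of 9 tested with 0 called, had an r of -0.49 (rho -0.55, permutation p = 0.0249, adjusted p = 0.0622, and -0.44 without the 2 farthest). The part of these cell types in the covariation was not tested.

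Castrated male 1 also stood apart in immune markers. Beside 1.04% of all loci called and 47.5% with a slope above 0, 9 of 14 macrophage markers were tested, with 0 called and 0 slopes above 0. Their sum was highest in castrated male 1, at 1262 CPM, beside 188 to 572 CPM in females and from 287 CPM upward in castrated males. This animal was the highest of 20 for 8 of the 9. The CD68 locus, at 96.1 to 205 CPM, is part of the sum and also carries the identifier of another gene, EIF4A1. Over all libraries the sum had an r of -0.21 with FASN (rho 0.08, permutation p = 0.363) and, without castrated male 1, of 0.31. T and NK cell markers, 10 of 14 tested with 0 called, were also highest in that library, at 134 CPM in sum. With the macrophage marker score added, 335 loci passed and the 4 other synthesis genes kept their calls. Of the skin epithelium markers 2 were tested, with 0 called, and 2 skeletal muscle markers had a locus but did not pass the filter on low counts. The mitochondrial share of counts, 8.49% in castrated male 1 to 26.3% in the library labelled castrated male 10, had an r of 0.02 with FASN (rho -0.03, permutation p = 0.923), -0.28 without castrated male 1 and -0.52 without the 2 farthest libraries. Log2 total counts had an r of 0.31 (rho 0.33, permutation p = 0.186), 0.42 without castrated male 1 and 0.29 without the 2 farthest libraries.

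Outside the lists, the loci most like the 5 genes were named by a fixed rule: the 5 with a symbol of their own and the highest r over 20 libraries, with sex means removed, among the 8769 loci of at least 10 CPM on average. This likeness is a description, and the libraries share the low outlier castrated male 1. TIMM44, part of the protein import motor of mitochondria, was first for ACLY (r = 0.93), ACSS2 (0.93) and SLC25A1 (0.92), and among the 5 for ACACA (0.89). IMMT, a scaffold of the mitochondrial inner membrane, was among the 5 for ACLY (0.89), ACACA (0.89), FASN (0.91) and ACSS2 (0.90). PDHA1 was first for FASN (0.93), and its 5 also held IMMT, TKT (0.88) and SLC24A3, a sodium, potassium and calcium exchanger (0.88). ACACA was led by GBE1, the glycogen branching enzyme (0.91), SLC24A3 (0.90), IMMT, TIMM44 and PDHA1 (0.88). PDHB was second for ACLY (0.92), whose 5 also held COQ9 (0.89), needed for coenzyme Q synthesis, and the acyl-CoA synthetase ACSL1 (0.88).

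For ACSS2 the others were COQ9 (0.92), the pyruvate kinase PKM (0.91), PDHA1 (0.91) and IMMT. For SLC25A1 they were COQ9 (0.91), the import gene TIMM50 (0.91), PDHB (0.91) and PGLYRP2 (0.90). With castrated male 1 left out these r lay between 0.79 (TKT with FASN) and 0.91 (TIMM44 with ACLY). The 5 genes themselves ranked high in each other's order of all 8768 other loci: ACSS2 was 1st and ACACA 2nd for ACLY, ACLY was 1st for ACACA and for ACSS2, and ACSS2 was 2nd for SLC25A1. FASN was 7th for ACACA, where SLC25A1 was 17th, and 11th for ACLY, 15th for ACSS2 and 84th for SLC25A1, the lowest of the 4 ranks in these 3 orders. At the other end of the order for FASN were PARP8 (r = -0.86), ADGRL4, an adhesion receptor of endothelial cells (-0.83), ALCAM, a cell adhesion molecule (-0.77), CHTOP (-0.77) and NMI (-0.77).

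Females and castrated males were compared to ask whether the pathway depends on sex. The values of the sexes overlapped for all 5 genes. SLC25A1 ran from 62.6 through 140 to 343 CPM in females and from 33.4 through 166 to 218 CPM in castrated males (lowest, median, highest, n = 10 each). ACLY ran from 39.8 through 200.0 to 459 CPM in females and from 31.7 through 217 to 363 CPM in castrated males. ACSS2 ran from 54.4 through 161 to 257 CPM in females and from 32.2 through 158 to 256 CPM in castrated males. In these 3 the lowest value came from castrated male 1 and the highest from female 4, with the other animals of both sexes between. ACACA ran from 68.5 through 283 to 489 CPM in females and from 56.9 through 316 to 439 CPM in castrated males. FASN ran from 271 through 2211 to 4239 CPM in females and from 83.4 through 2447 to 4582 CPM in castrated males.

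None of the 5 passed the test between the sexes. The differences, females minus castrated males in log2, were 0.02 for SLC25A1 (SE 0.281), -0.03 for ACLY (SE 0.421), -0.02 for ACSS2 (SE 0.299), -0.05 for ACACA (SE 0.349) and 0.07 for FASN (SE 0.523), each with an adjusted p of 0.99996 in edgeR's quasi-likelihood test. The approximate 95% interval for FASN ran from -0.95 to 1.10 and that for SLC25A1 from -0.53 to 0.57, so true differences within these intervals remain possible. The smallest difference that the test could detect was not computed. By edgeR 0 of all 21587 loci passed (0%). At an unadjusted p under 0.05 there were 935. The calls of the other tools numbered 6 (DESeq2), 9 (limma-voom with quality weights for libraries) and 11 or 9 (limma on FPKM). Without the 2 libraries numbered 10, 18 loci passed, none of them one of the 5, and the FASN difference was -0.05. Differences this close to 0 changed sign between settings.

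**Figure D4:**
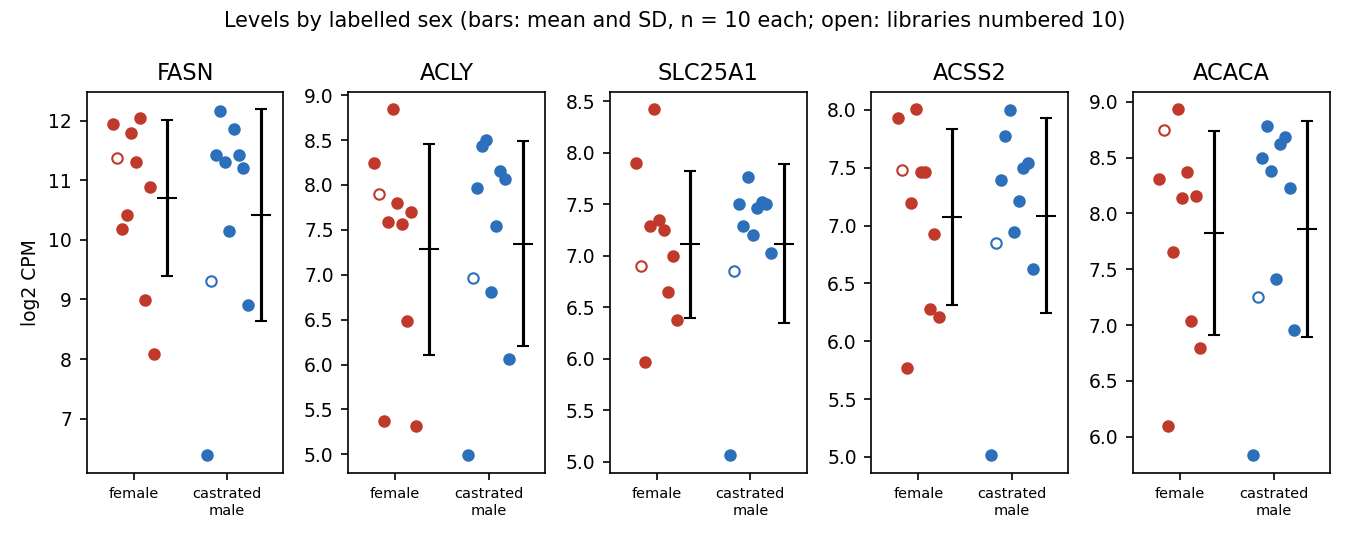
Log2 CPM (vertical axes, a separate scale for each gene) of the 5 genes by labelled sex, 1 point per library, with the mean and SD (n = 10 each) beside the points and the libraries numbered 10 as open circles. The sexes overlap for each gene, and the lowest point of each panel is castrated male 1.

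Age at slaughter, the one number the labels give per animal, was not linked to the pathway by the test either. Slopes per 10 days of age, with sex in the model, were 0.16 for SLC25A1 (SE 0.316), 0.39 for ACLY (SE 0.488), 0.34 for ACSS2 (SE 0.328), 0.46 for ACACA (SE 0.384) and 0.48 for FASN (SE 0.57). All 5 estimates were above 0, as were 50.2% of all loci, with adjusted p from 0.877 to 0.948 in edgeR's quasi-likelihood test. Because the 5 genes moved together between animals, their shared sign does not count as 5 separate observations. By edgeR 0 of 21587 loci passed (0%). At an unadjusted p under 0.05 there were 1189, and the calls of the other tools numbered 5 (DESeq2), 0 (limma-voom) and 1 (limma on FPKM). The age slopes of females and castrated males differed by -0.02 for FASN (SE 1.2) and 0.37 for ACACA (SE 0.794), the 5 adjusted p lay between 0.975 and 0.999, and edgeR called 0 of 21587 loci (0%), of which 1170 had an unadjusted p under 0.05.

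Isoform use was read from the FPKM of the assembled transcripts, as shares of their sum at the locus. FASN had nearly a single isoform: TCONS_00016381, the one assigned to a reference transcript, held 99.8% ± 0.207 (SD, n = 20). ACLY was also stable, with TCONS_00015096 at 67.9% ± 5.21 leading in 20 of 20 libraries and TCONS_00015098 at 25.8% ± 3.89. ACACA was divided: TCONS_00017605 held 41.7% ± 11.3 and led in 16 libraries, TCONS_00017610 held 28.0% ± 8.65 and led in the other 4, and TCONS_00017611 held 16.3% ± 8.43. A rare ACACA form, TCONS_00017603, held 37.1% in female 7 and at most 4.01% in any other library.

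ACSS2 and SLC25A1 differed most between libraries, and the libraries numbered 10 stood apart in both. In ACSS2, TCONS_00039253 held 60.4% ± 16.5 and led in 18 libraries. TCONS_00039246 held 63.1% in the library labelled female 10 and 62.5% in the library labelled castrated male 10, where it led, against 0 to 13.4% in the other 18. In SLC25A1, TCONS_00030072 held 56.6% ± 14.7 and led in 15 libraries, and TCONS_00030073 held 35.7% ± 18.4 and led in 4. TCONS_00030073 was close to absent, at 0.0159% and 0.00645%, in the libraries labelled female 10 and castrated male 10, against 11.3 to 71.7% in the other 18. TCONS_00030071 instead held 27.5% and 65.5% there, and at most 9.0% elsewhere. The ACACA form TCONS_00017611 was likewise higher in both, 32.2% and 27.3%, than in any of the other 18 (0.84 to 25.2%). The summed FPKM of the 3 genes in these 2 libraries lay within the range of the others. Whole-gene FPKM in these 2 libraries stood apart from the counts for some genes, however. ACSS2 was close in the library labelled female 10 (86.8 FPKM and 179 CPM, beside 91.3 FPKM and 176 CPM in female 5), and FASN was not. FASN was at 835 FPKM and 2640 CPM in the library labelled female 10, against 537 FPKM and 2534 CPM in female 5. In the library labelled castrated male 10 it was at 281 FPKM and 636 CPM, against 241 FPKM and 1164 CPM in female 2. The cause was not tested. Cufflinks divides reads among overlapping isoforms by estimation, and short differences between isoforms limit the precision of such shares.

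**Figure D5:**
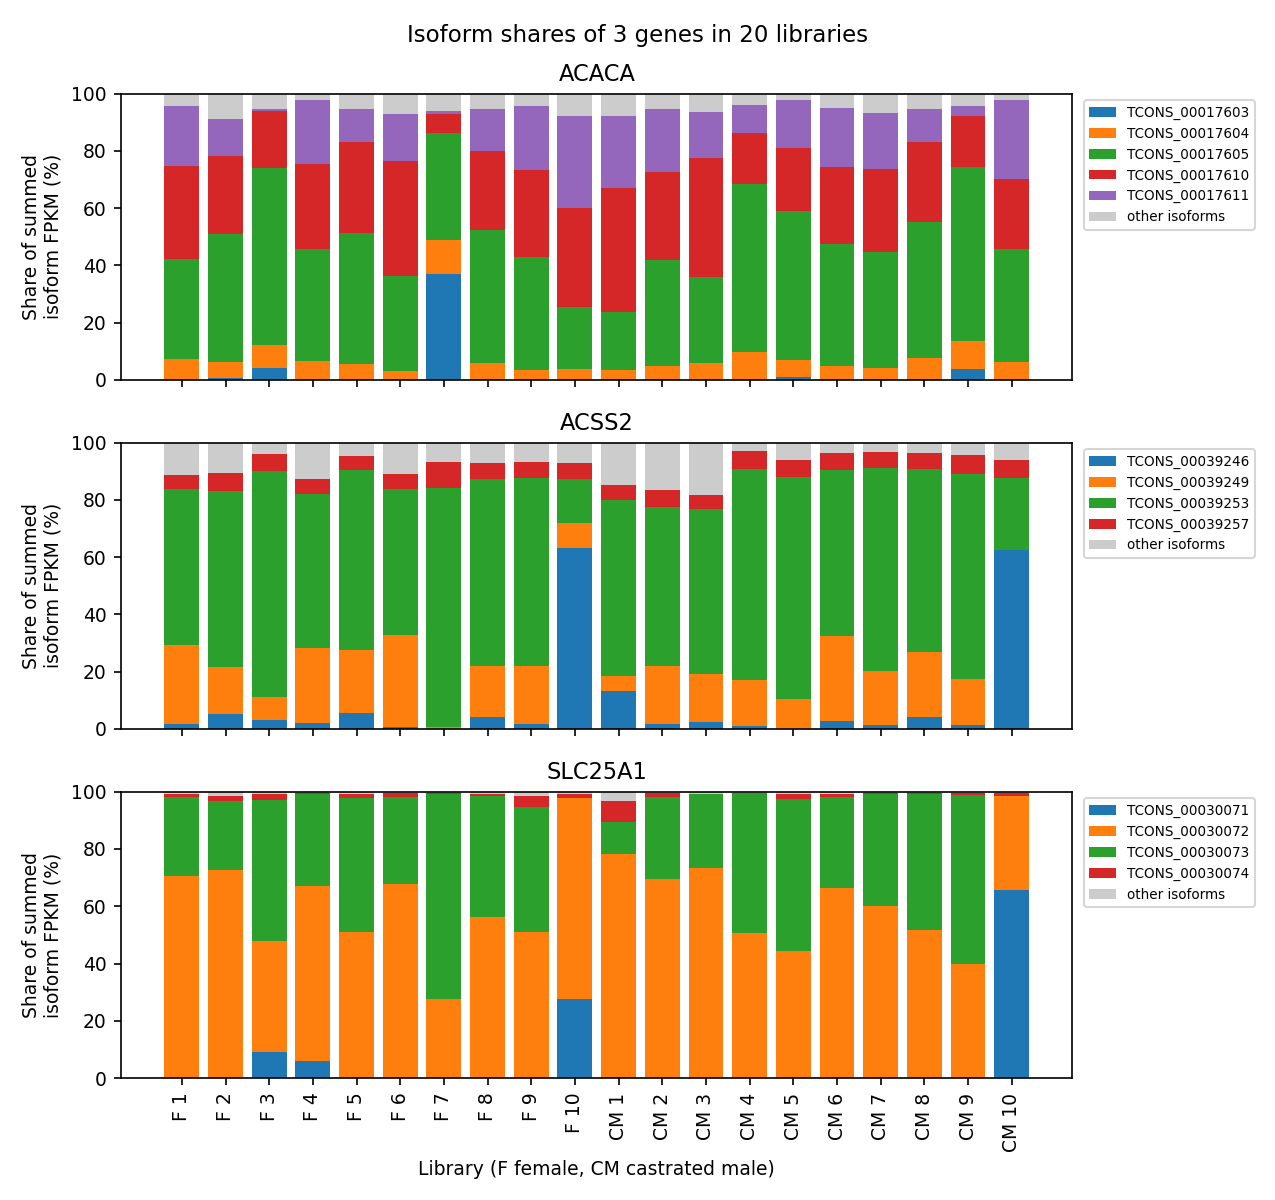
Share of the summed isoform FPKM in percent (vertical axes) of the main isoforms of ACACA, ACSS2 and SLC25A1 in each library (horizontal axis; F, female; CM, castrated male), with the remaining isoforms in grey. F 10 and CM 10 differ from the other 18 libraries in ACSS2 and SLC25A1, and F 7 in ACACA.

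With all 20 libraries no isoform of the 5 genes passed a test. Of their 30 isoforms 21 were tested between the sexes by limma on log2(FPKM + 0.1), and 0 were called, beside 20 of 33316 isoforms (0.06%). That number was 3 without the libraries numbered 10 and 0 without castrated male 1. The shares of 9 isoforms could be tested, and 0 were called between the sexes, beside 0 of 18403 (0%). Against the FASN level 0 of the 9 were called, beside 5 of 18403 (0.0272%). The ACSS2 isoform TCONS_00039249, 16.8% ± 8.99 on average, had the smallest p of the 9, a slope per doubling of FASN of 0.06 (share on the arcsine square root scale, SE 0.0183, unadjusted p = 0.00501, adjusted p = 0.699). This test turned on castrated male 1: without it 702 of 18510 isoforms were called, and the SLC25A1 isoform TCONS_00030072 passed, with a slope of 0.09 (adjusted p = 0.031).

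A second locus, XLOC_006300, carries the identifier of ACACA as well and was not counted with it. Its level ran from 4.06 through 16.6 to 33.2 FPKM, and it held 2.87 to 10.3% of the counts of the 2 loci together (median 5.86%). It followed the main ACACA locus with an r of 0.80 (rho 0.72, permutation p = 4e-05, n = 20), and 0.59 without the 2 farthest libraries. Its slope on FASN was 0.30 (SE 0.0763, adjusted p = 0.0636), below that of the main locus and not past the threshold. Whether it is a part of the same gene was not tested.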

How the data were processed

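Per the submitters' processing notes, the tools were Cufflinks 2.1.1, Bowtie2 2.1.0.0, DESeq2 and TopHat2 2.0.8, on the build Sscrofa10.2, with no role named. Annotation release, counting tool, strand setting and treatment of multiply mapped reads: not given in the sources used here. Counts came as raw values: the gene table the authors deposited holds raw read counts per Cufflinks locus, checked here to be whole. They also deposited FPKM, per the file headers and labels, for loci and isoforms. Gene symbols were matched by Ensembl identifier, which named 9360 of 23483 loci, and isoforms were tied to loci by their FPKM sums.

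Counts were fitted with edgeR 4.0.16 (R 4.3.3): TMM scaling, filterByExpr by sex, quasi-likelihood tests, and Benjamini-Hochberg adjustment over all loci at 0.05. Models held sex, sex and age (per 10 days), their interaction, or sex and the log2 CPM (prior count 2) of 1 gene, which was left out of its own fit. Isoforms were tested with limma 3.58.1 on log2(FPKM + 0.1) if 10 libraries reached an FPKM of 0.5. Shares (mean 10 to 90%, locus FPKM sum at least 1 in all libraries) were tested on the arcsine square root. Correlations used 100000 permutations, two-sided, in Python 3.11.15 (matplotlib 3.10.9, pandas 2.3.3, numpy 2.4.6, scipy 1.17.1). DESeq2 1.42.0, limma-voom (always with quality weights for libraries), other scalings, filters, pseudocounts, covariates and left-out libraries were alternatives. The fits were tested on simulated data. The genes and lists were chosen with earlier results of these data known. Genes were named by a rule: the 5 genes; for each, the 5 loci of highest r (for FASN also lowest); and per list up to 4 called genes and 2 of largest p, of which some are given; SCD, ELOVL6, SREBF1, MLXIPL, THRSP, ME1 and ACACB always. Other list genes named here (PC, PPARG, ACSS1, PRKAA1, PRKAB2, PDHX) were added after their values were seen. PLIN1, CIDEC and LIPE, named as fat cell markers, also fall outside the rule. Some genes that the rule names are not reported here. Each library is 1 animal. No genome of the build was used here, so no coordinates or sequences are given.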

Additional observations from a re-analysis of the deposited data

Results flagged for a closer look

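Of 52 groups of 10 libraries (a gene's log2 CPM or an isoform's share within 1 labelled sex), 10 had 1 library whose gap to its nearest neighbour, as a part of the whole range, exceeded Dixon's 95% critical value. Chance gives this in about 1 in 20 groups, and the groups share libraries. ACSS2 in castrated male 1 was at 32.2 CPM, with the next castrated male at 98.4 CPM, and SLC25A1 in the same animal was at 33.4 CPM, with the next at 116 CPM. The ACSS2 isoform TCONS_00039246 held 63.1% in the library labelled female 10, with the next female at 5.44%, and 62.5% in the library labelled castrated male 10, with the next at 13.4%. TCONS_00039253 of ACSS2 held 15.3% and 24.9% in the same 2 libraries, with the next at 51.2% and 55.5%. In castrated male 1 the ACSS2 isoform TCONS_00039256 held 6.08% (next 3.56%), and the SLC25A1 isoforms TCONS_00030074 and TCONS_00030076 held 7.05% (next 1.6%) and 3.35% (next 0.905%). In female 7 the ACSS2 isoform TCONS_00039257 held 8.99%, with the next female at 6.34%.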

How the results depend on the processing

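Over 100 results and 962 alternative values, 867 were scored as the same. Estimates and r had to keep their direction and their side of the threshold, and spreads to move by less than the error. Counts of called loci or isoforms had to stay within a fixed ratio of the main count, by which 335 loci beside 225 were scored as the same. No paired analysis was possible because the labels give no replicate numbers, and the numbers used here only follow the order of deposit. The cause of each change below was not tested.

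Between the sexes the count of 0 loci became 6 with DESeq2, 9 with limma-voom, 11 and 9 with limma on log2(FPKM + 0.1) and log2(FPKM + 1), 18 without the libraries numbered 10, and 0 to 13 when single libraries were left out. The differences turned sign with upper-quartile scaling for ACLY (0.0021) and ACSS2 (0.0093), with a filter of 1 CPM for ACSS2 (0.0021), without the libraries numbered 10 for FASN (-0.053), and with age added for FASN (-0.12) and SLC25A1 (-0.036). For SLC25A1 they did so with limma-voom (-0.12) and on FPKM (-0.031 and -0.032). With single libraries left out the differences ran from -0.26 to 0.10 for ACLY, -0.20 to 0.061 for ACACA, -0.082 to 0.28 for FASN, -0.14 to 0.091 for ACSS2 and -0.19 to 0.11 for SLC25A1. For age, DESeq2 called 5 loci and limma on FPKM 1 with either pseudocount, and leaving out single libraries gave 0 to 1. The age slope of SLC25A1 then ran from -0.056 to 0.27. Without castrated male 1 the differences of age slopes were 0.13 for ACLY, 0.32 for FASN, 0.062 for ACSS2 and 0.055 for SLC25A1, all with the sign turned.

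For loci moving with FASN, DESeq2 called 693, the fat cell score left 73, and single libraries left out gave 129 to 271 (SLC25A1 slope 0.32 to 0.41). Without castrated male 1 the counts with ACLY, ACACA, ACSS2 and SLC25A1 as covariates were 45, 47, 50 and 50, and in the last the slopes of ACACA and FASN were 1.11 and 1.24, no longer past the threshold. Spread fell to 1.24 for FASN, 0.63 for ACSS2 and 0.55 for SLC25A1.

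Isoforms called between the sexes numbered 3 without the libraries numbered 10, where TCONS_00017608 (-0.11) and TCONS_00039249 (-0.25) turned sign. They numbered 0 without castrated male 1, where TCONS_00016381 (-0.22), TCONS_00030073 (-0.19), TCONS_00039249 (-0.051) and TCONS_00039256 (-0.072) did. Sex differences of shares turned without castrated male 1 for TCONS_00015096 (0.0053), TCONS_00017610 (0.0122), TCONS_00030072 (0.0246) and TCONS_00030073 (-0.00014), and untransformed for TCONS_00030072 (0.00078). Shares called on FASN numbered 3 untransformed, 11 without the libraries numbered 10 and 702 without castrated male 1. Slopes then turned for TCONS_00030073 (-0.0058 untransformed, -0.0055 without the libraries numbered 10, -0.042 without castrated male 1), TCONS_00015096 (0.0133) and TCONS_00017605 (-0.030), both without castrated male 1, and TCONS_00030072 (0.09) passed there. At 1240 or more counts per gene and library, depth limits the 5 genes less than the number of animals does. Isoform shares have no counts, so their depth is unknown.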
